A study of Mus musculus with 2 samples.

Results

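The genes described here encode esterases and lipases, the enzyme class to which the deleted gene Iah1 belongs. They were chosen by symbol: Iah1 itself, the carboxylesterases, the arylacetamide deacetylase and paraoxonase families, the Abhd and Pnpla proteins, and other neutral lipases, thioesterases, amidases and phospholipases. Of 53 listed genes, 51 had a probe set that names no other gene, out of 22180 such genes in the series. Ces2c and Esd had none. Liver RNA of male Iah1-KO mice, a systemic knockout, was compared with that of male Iah1-WT mice. Both genotypes received the same high-fat diet, begun at 6 weeks of age and kept up for 12 weeks, with food withdrawn 4 hours before collection. RNA of 3 mice was combined on 1 array per genotype. The strain and the extent of the deletion are not given in the sources used here.

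With 1 array per genotype there is no replicate error, no test was possible, and no p-value is given. Higher and lower therefore describe these 2 arrays. Values are log2 RMA values (a normalized brightness of the probes), a gene value is the mean over its probe sets, and differences are KO minus WT on that scale. A gene was compared where the brighter array reached 4.68, the median of all genes, and counted at 1.5-fold, or 0.58 on the log2 scale. That filter kept 11090 genes and 50 of the 51 measured members, with Abhd10 just under it at 4.40 in KO and 4.61 in WT. As a guide to precision, differences of probe sets for the same gene had an SD of 0.27 around their mean (604 genes), a figure that leaves out mice, labelling and hybridisation.

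Esterases and lipases cut ester bonds, most of them with a serine in the active site. In liver they act at several places: carboxylesterases and arylacetamide deacetylase in the endoplasmic reticulum process drugs and stored lipid, lipases at the droplet and in the lysosome release fatty acids, and secreted members circulate in plasma. Iah1 encodes a homologue of a yeast enzyme that hydrolyses isoamyl acetate and carries the GDSL-type hydrolase fold, which the carboxylesterases lack.

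Iah1 RNA was lower in the KO array by a wide margin. Its value was 3.90 in KO, below the filter, and 8.59 in WT, a difference of -4.69. The lowest difference of all 11090 genes was that of Iah1. Taking the filter in place of the KO value, Iah1 was at least 15.1-fold lower. The labels do not say where its probe set lies relative to the deleted part of the gene.

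The other members stayed close to 0. Of the 50 compared, 4 were lower at 1.5-fold (Iah1, Ces2b, Ces3b and Ces4a), against 2.45% of all genes, and 0 were higher, against 1.47%. Without the targeted gene that leaves 3 of 49. Ces2b and Ces4a passed the filter only through the WT array, and against the filter they were at least 1.08-fold and at least 1.01-fold lower, short of 1.5-fold. Ces3b was the member other than Iah1 still counted when the filter stood in for the lower array. The remaining 46 genes lay between -0.26 and 0.31, and their highest fold was 1.24. A smaller size of 0.32 on the log2 scale was reached by 6.62% of all genes as higher and 10.4% as lower. At that size the members gave the same numbers, 0 higher and 4 lower. Ces1d and Abhd11, both at 0.31, fell just short of it. With the median difference of all genes subtracted they came to 0.34 and 0.33, past that size. At 2-fold the members counted were 0 higher and 2 lower (Iah1 and Ces2b), against 0.135% and 0.307% of all genes.

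The members leaned slightly upward within that narrow range. Without Iah1, 32 of 49 lay above 0 with a median of 0.05 (0.045), while 44.3% of all genes lay above 0 with a median of -0.02. Absolute differences had a median of 0.12 in the members and 0.14 in all genes, and 44 of 49 members lay within 0.3, against 80.7% of all genes. Members were bright, with 30 of the 49 in the brightest of 4 equal groups of genes, where the SD of all differences was 0.16, against 0.36 in the dimmest. Most of the single differences given below are smaller than the probe set SD.

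**Figure D1:**
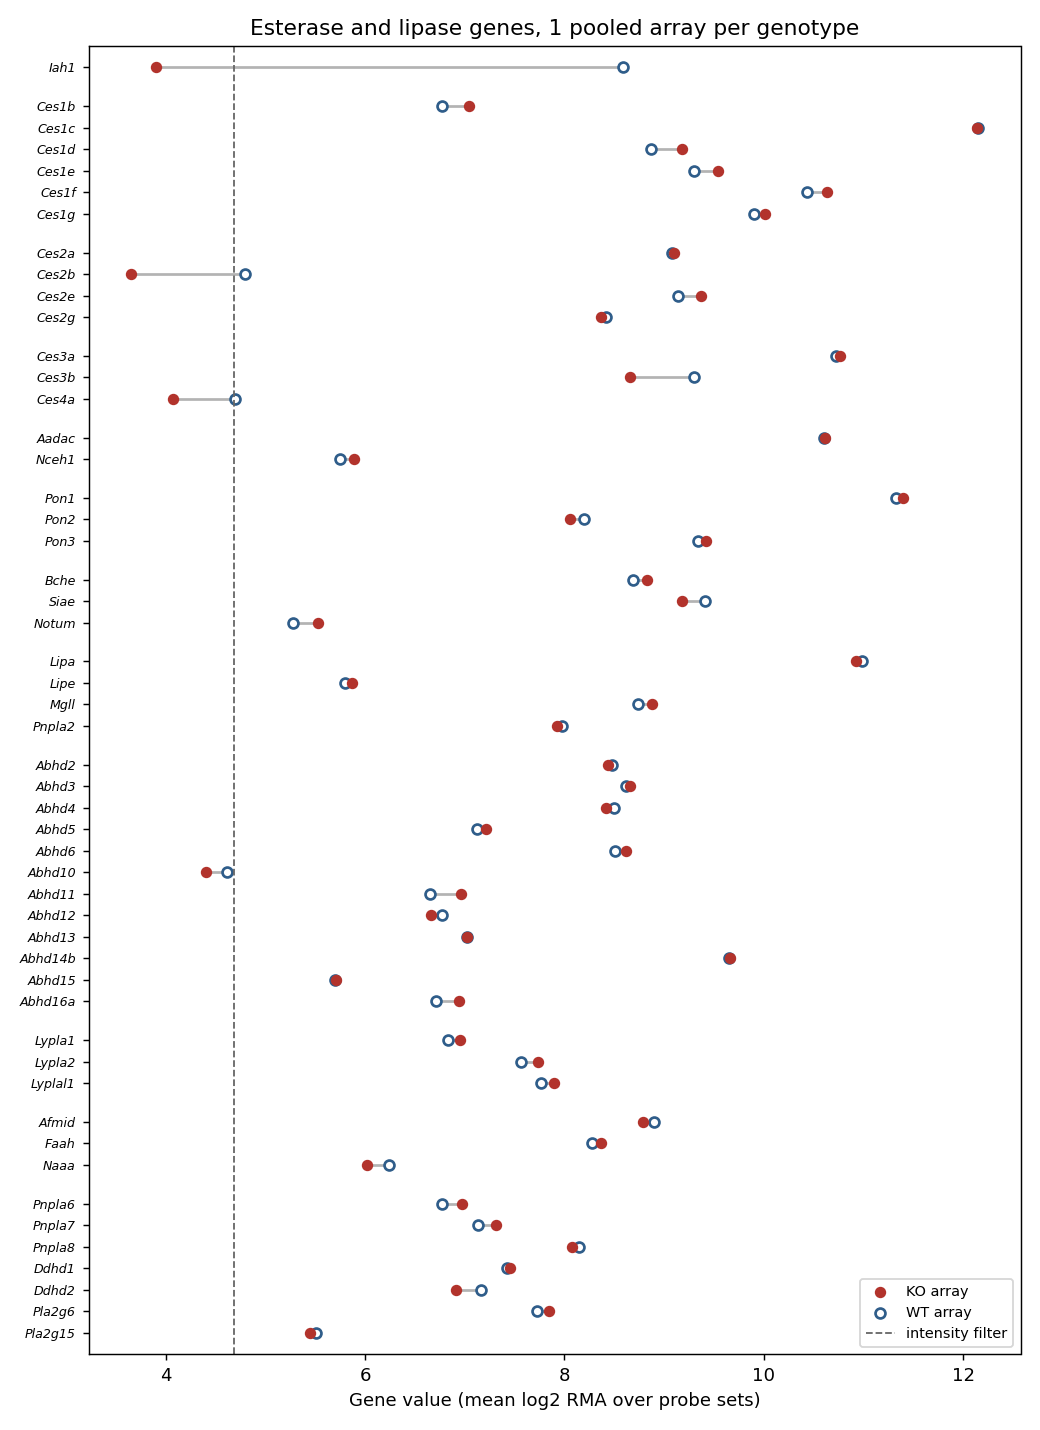
Gene values (mean log2 RMA, horizontal axis) of the 51 measured esterase and lipase genes, grouped by family, with filled points for the KO array and open points for the WT array; the dashed line is the intensity filter at 4.68. Iah1 is the widest gap, 3.90 in KO against 8.59 in WT, followed by Ces2b, and most other pairs nearly touch.

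**Figure D2:**
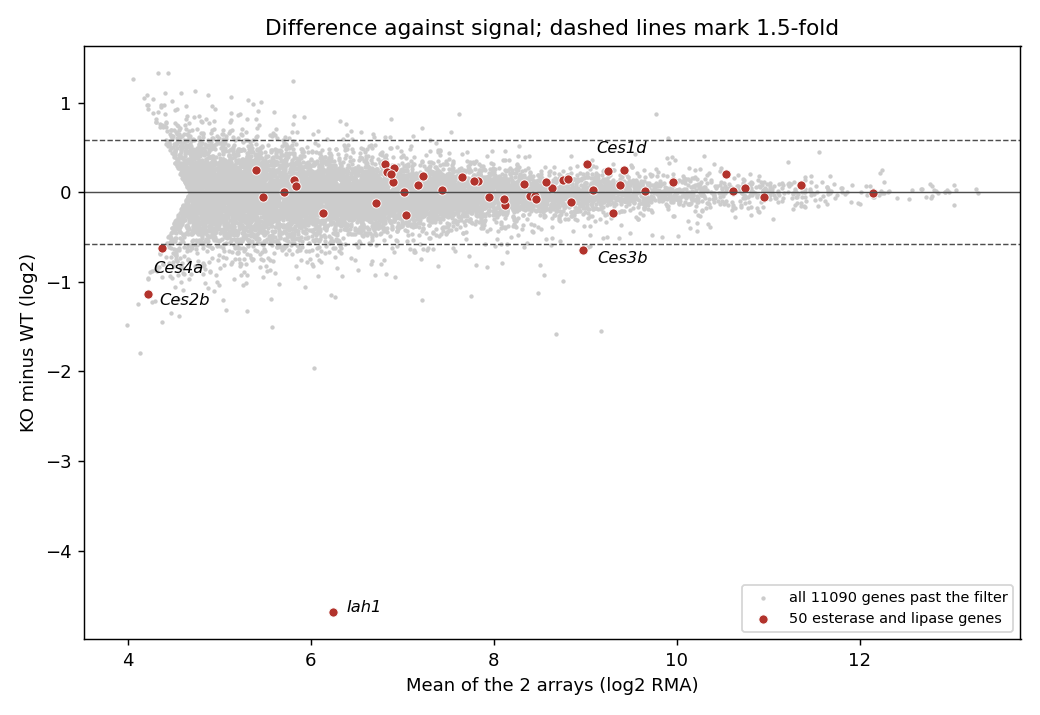
Difference KO minus WT (log2, vertical axis) against the mean of the 2 arrays (log2 RMA, horizontal axis) for the 11090 genes past the filter in grey and the 50 members in red; dashed lines mark 1.5-fold. Ces2b and Ces4a sit at the dim edge where grey points are widely spread, while Ces3b sits at a signal where few genes pass the lines.

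Of the carboxylesterase 1 genes, 5 of 6 lay above 0 with a median of 0.22, none of them at 1.5-fold. Ces1d, a triglyceride hydrolase of the endoplasmic reticulum that takes part in lipoprotein assembly, had a value of 9.18 in KO and 8.86 in WT. Its fold of 1.24 was the highest among all members. Ces1b was at 7.04 in KO and 6.77 in WT, a difference of 0.27. Ces1e, known as egasyn for its binding of beta-glucuronidase in the endoplasmic reticulum, followed at 9.54 in KO and 9.30 in WT, a difference of 0.24. Ces1f, another hydrolase of the endoplasmic reticulum, was at 10.63 in KO and 10.43 in WT, or 0.20, and Ces1g, which has been linked to hepatic lipid storage in mice, was at 10.01 in KO and 9.90 in WT, or 0.12. The exception was Ces1c, the carboxylesterase of mouse plasma, at 12.14 in KO and 12.15 in WT. The family median stayed between 0.22 and 0.25 under the 8 other filters, scalings and probe set rules, and each of the 5 genes stayed above 0. Because each gene of the family has 1 probe set and passed every filter, only the scalings could change these values. No difference of the family was much above 0.27, the SD between probe sets.

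Carboxylesterase 2 genes went both ways. Ces2b had a value of 3.65 in KO and 4.79 in WT, a difference of -1.14. The KO value lies below the filter and the WT value only just above it, so that Ces2b was at least 1.08-fold lower once the filter stands in for the KO value. In the dimmest group of genes, to which it belongs, 5.48% were lower at 1.5-fold. Ces2e, at 9.37 in KO and 9.14 in WT, differed by 0.23. Ces2a, a hydrolase of drug esters and glycerides in mouse liver, was nearly level at 9.10 in KO and 9.08 in WT, and so was Ces2g, at 8.37 in KO and 8.42 in WT.

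Ces3b was the carboxylesterase with the clearest difference. Its value was 8.66 in KO and 9.30 in WT, which is 1.56-fold lower, well above the filter in both arrays. In the brightest group of genes, 18 of 2773 (0.649%) were lower at that threshold, and Ces3b was among them. Ces3a, which lies beside it on the chromosome, was at 10.77 in KO and 10.72 in WT, a difference of 0.04 (0.045). The neighbours thus stood 0.64 below and slightly above 0. Ces4a passed the filter in WT alone, at 4.07 in KO and 4.69 in WT, a difference of -0.62 that comes to at least 1.01-fold lower against the filter. Ces2b and Ces4a were no longer compared when the mean of the 2 arrays had to pass. That left Iah1 and Ces3b as the members lower at 1.5-fold (2 of 48), against 2.06% of all genes.

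In the RefSeq table of GRCm38.p6 the carboxylesterase genes form 2 clusters on chromosome 8, with no other protein-coding gene inside either. The first holds 9 genes in the order Ces1a to Ces1h and Ces5a, of which 6 were compared and 5 lay above 0. The second holds 11 genes, Ces2a to Ces2h followed by Ces3a, Ces3b and Ces4a, of which 8 were compared, 4 above 0 and 4 below. Ces3b belongs to the second cluster, as do Ces2b and Ces4a, whose KO values lie below the filter. So does Ces2d-ps, a transcribed pseudogene that is no member, at 5.53 in KO and 4.72 in WT. Its difference of 0.81 runs opposite to that of Ces2b. Both are in the dimmest group of genes, and the WT value of Ces2d-ps is only just above the filter. Identity between the proteins of these clusters was not computed, and how far the probe sets of these genes share signal was not tested.

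**Figure D3:**
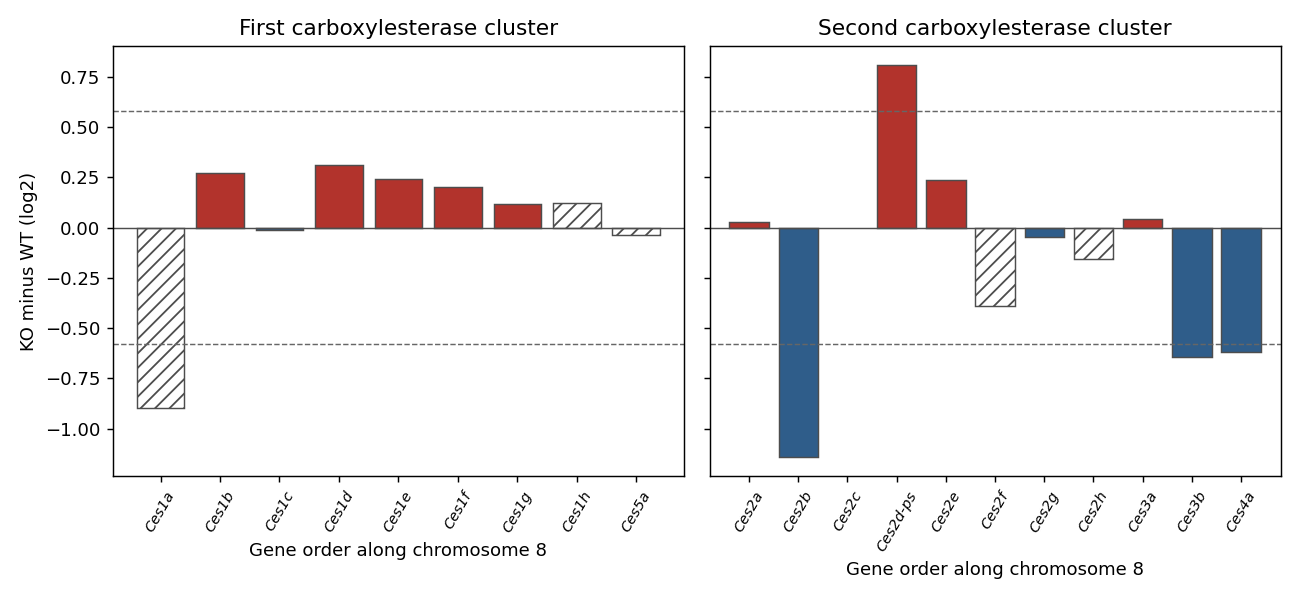
Difference KO minus WT (log2, vertical axis) of the carboxylesterase genes in their order along chromosome 8, the first cluster on the left and the second on the right; red bars are above 0, blue bars below, hatched bars did not reach the filter, and dashed lines mark 1.5-fold. Ces1b to Ces1g apart from Ces1c are low red bars of 0.12 to 0.31, and Ces1a, hatched, is at -0.90. The second cluster mixes signs from -1.14 for Ces2b to 0.81 for Ces2d-ps, both in the dimmest group of genes. Ces2c has no bar.

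The promoters of 43 members, 10 of them carboxylesterases, are in the RefSeq table. The 250 bases before the start are given for the targeted gene, for 2 adjacent carboxylesterase 1 genes with unequal differences, and for a carboxylesterase from each side of 0 in the second cluster. Capitals mark matches, on either strand, to letters chosen with the sequences in view: CCGCCC (the GC box) in Iah1, and elsewhere TATAAA (the TATA box), CCAAT (bound by the general factor NF-Y), GTTAAT (part of the site of HNF1, a hepatocyte factor), AGGTCA (bound by nuclear receptors) and GGNCAAAGT (the core of a direct repeat bound by HNF4 and PPAR factors).
Iah1, GRCm38.p6 chr12:21316142-21316391, plus strand: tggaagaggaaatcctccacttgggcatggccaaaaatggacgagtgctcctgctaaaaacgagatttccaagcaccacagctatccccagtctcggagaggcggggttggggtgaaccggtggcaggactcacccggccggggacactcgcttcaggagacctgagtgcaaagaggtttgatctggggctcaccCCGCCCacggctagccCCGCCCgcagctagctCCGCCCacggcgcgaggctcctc
Ces1b, GRCm38.p6 chr8:93079941-93080190, minus strand: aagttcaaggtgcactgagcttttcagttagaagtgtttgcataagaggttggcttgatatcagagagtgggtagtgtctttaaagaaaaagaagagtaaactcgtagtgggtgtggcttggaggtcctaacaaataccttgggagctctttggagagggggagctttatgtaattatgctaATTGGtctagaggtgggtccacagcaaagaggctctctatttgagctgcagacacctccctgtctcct
Ces1c, GRCm38.p6 chr8:93131284-93131533, minus strand: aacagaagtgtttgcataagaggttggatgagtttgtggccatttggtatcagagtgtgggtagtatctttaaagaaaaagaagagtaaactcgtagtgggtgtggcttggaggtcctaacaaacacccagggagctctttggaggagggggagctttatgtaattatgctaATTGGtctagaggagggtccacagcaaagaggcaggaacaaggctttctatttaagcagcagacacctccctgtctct
Ces2e, GRCm38.p6 chr8:104926010-104926259, plus strand: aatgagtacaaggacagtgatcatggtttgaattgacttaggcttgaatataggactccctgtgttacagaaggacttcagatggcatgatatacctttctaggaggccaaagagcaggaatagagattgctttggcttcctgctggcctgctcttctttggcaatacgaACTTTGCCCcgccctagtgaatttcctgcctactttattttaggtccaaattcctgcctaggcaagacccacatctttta
Ces3b, GRCm38.p6 chr8:105083505-105083754, plus strand: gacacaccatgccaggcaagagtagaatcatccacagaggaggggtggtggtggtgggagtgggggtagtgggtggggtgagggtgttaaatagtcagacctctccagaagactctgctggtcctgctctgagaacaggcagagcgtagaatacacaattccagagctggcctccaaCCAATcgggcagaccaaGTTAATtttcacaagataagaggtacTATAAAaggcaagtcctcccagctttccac

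Ces1b and Ces1c had the most similar promoters of the 45 carboxylesterase pairs, with 211 of 250 bases identical in a global alignment, against a median of 52.8% over all pairs. Their RNA values differed between the arrays by 0.27 for Ces1b and -0.01 for Ces1c. Each of these differences rests on 1 probe set, and the SD between probe sets was 0.27. The GGNCAAAGT letters were found in the windows of Ces2a, Ces2e and Ces2g, and in 0.899% of 27025 promoters of equal length. These 3 genes lay at 0.03, 0.23 and -0.05. Ces3b alone among the members held GTTAAT, which 6.52% of all promoters have, and it shared TATAAA with Ces1g and Lipa (13.0% of all promoters). CCAAT was in 7 of the 10 carboxylesterase promoters and in 34.5% of all, and AGGTCA in those of Ces2a and Ces4a and in 13.8% of all. Iah1 held CCGCCC 3 times in a window of 62.8% G and C, letters that 23 of 43 members and 32.9% of all promoters carry. In Ces2e, CCGCCC also occurs once and overlaps the end of the GGNCAAAGT match. A match describes letters only and is not evidence of binding.

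Of the arylacetamide deacetylase family, Aadac, which hydrolyses arylamides and glycerides in the endoplasmic reticulum of hepatocytes, was level at 10.62 in KO and 10.60 in WT. Nceh1, a neutral cholesteryl ester hydrolase best known from macrophages, had 5.89 in KO and 5.75 in WT, a difference of 0.14. Its probe sets were alike in direction, at 0.11 and, below the filter, 0.17.

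The paraoxonases hydrolyse lactones and organophosphates. Pon1, carried on high-density lipoprotein, was at 11.40 in KO and 11.32 in WT, and Pon3, found on the same particles, was at 9.42 in KO and 9.34 in WT, so both differed by 0.08. Pon2, which stays inside cells, was at 8.06 in KO and 8.19 in WT, or -0.14. All 3 were within the spread between probe sets.

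Among the other esterases, Bche, which encodes butyrylcholinesterase of plasma, was at 8.83 in KO and 8.69 in WT, a difference of 0.14. Siae, which removes acetyl groups from sialic acid, was at 9.18 in KO and 9.41 in WT, or -0.23. Notum, which inactivates Wnt proteins by removing their fatty acid, averaged 5.52 in KO and 5.28 in WT, or 0.25, but its probe sets disagreed. The brighter one read 6.76 in KO and 6.81 in WT, and the whole lean came from the other, below the filter, at 4.28 in KO and 3.75 in WT. The family median of 0.14 turned to -0.04 with the brightest probe set taken per gene and to -0.05 with the filter at the 75th percentile. Esd, the S-formylglutathione hydrolase gene, is covered by a probe set that also names its pseudogene Esd-ps, which read 6.11 in KO and 6.16 in WT and was left out of the counts above. With probe sets of several genes included, it brought the family median to 0.04.

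Lipases that release fatty acids from stored lipid were level between the arrays. Pnpla2, adipose triglyceride lipase, acts first on droplet triglyceride and was at 7.92 in KO and 7.98 in WT. Lipe, hormone-sensitive lipase, was at 5.87 in KO and 5.80 in WT. Mgll, which cleaves the last fatty acid from monoglyceride, was at 8.88 in KO and 8.73 in WT, the widest gap of the group at 0.15. Lipa, the acid lipase of the lysosome, was at 10.93 in KO and 10.98 in WT. The differences of these 4 genes ran from -0.06 to 0.15 with a median of 0.01, which went to -0.06 with the filter at the 75th percentile.

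The Abhd proteins share an alpha/beta hydrolase fold. Of 12 genes, 11 were compared, 8 of them above 0, with a median of 0.01 and none at 1.5-fold. Abhd11, a mitochondrial hydrolase, was at 6.96 in KO and 6.65 in WT, or 0.31, and Abhd16a, a phosphatidylserine lipase, was at 6.94 in KO and 6.71 in WT, or 0.23. Those were the most distant from 0. Abhd5, the protein that activates adipose triglyceride lipase, was at 7.21 in KO and 7.12 in WT. Abhd6, a monoacylglycerol lipase, was at 8.62 in KO and 8.51 in WT. Abhd12, a lysophosphatidylserine lipase, was on the other side of 0, at 6.66 in KO and 6.77 in WT. The differences of Abhd2, Abhd3, Abhd4, Abhd13, Abhd14b and Abhd15 were between -0.08 and 0.04. In Abhd15, an insulin-responsive protein of adipocytes, the mean of 0.01 covered opposite probe sets at -0.23 and 0.24. In Abhd10, a mitochondrial thioesterase, the probe sets stood at -0.63, below the filter in both arrays, and 0.21.

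Acyl-protein thioesterases remove palmitate from proteins, and all 3 lay above 0. Lypla1 was at 6.95 in KO and 6.84 in WT, Lypla2 at 7.73 in KO and 7.56 in WT, and Lyplal1 at 7.89 in KO and 7.77 in WT. Their differences of 0.12, 0.17 and 0.13 were alike in size and below the probe set SD. In Lypla1, the brighter probe set, at 9.79 in KO and 9.70 in WT, differed by 0.09. The other, below the filter, differed by 0.15. The family median stayed between 0.13 and 0.16 in the 8 alternatives, of which only the scalings moved it.

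Amidases leaned the other way, with a median of -0.11. Naaa, a lysosomal amidase of N-acylethanolamines, was at 6.01 in KO and 6.24 in WT, or -0.23. Afmid, the formamidase of the kynurenine pathway, was at 8.79 in KO and 8.90 in WT, and Faah, the amidase that degrades anandamide, was at 8.37 in KO and 8.28 in WT. The family median stayed below 0 in the 8 alternatives and was nearest to it, at -0.01, with the filter at the 75th percentile, which Naaa did not reach.

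Phospholipases and lysophospholipases spread from -0.26 to 0.20 with a median of 0.03. Pnpla6, the neuropathy target esterase, and Pnpla7, both of which act on lysophosphatidylcholine, stood together above 0. Pnpla6 was at 6.97 in KO and 6.77 in WT, and Pnpla7 at 7.31 in KO and 7.13 in WT. Ddhd2, a lipase known for triglyceride breakdown in the mouse brain, was the lowest at 6.91 in KO and 7.17 in WT. Its relative Ddhd1, a phospholipase that prefers phosphatidic acid, was level at 7.45 in KO and 7.43 in WT. The calcium-independent phospholipases went apart, with Pla2g6 at 7.84 in KO and 7.72 in WT and Pnpla8 at 8.07 in KO and 8.14 in WT. Pla2g15, the phospholipase of the lysosome, was at 5.45 in KO and 5.51 in WT, with opposite probe sets at 0.02 and, below the filter, -0.14.

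**Figure D4:**
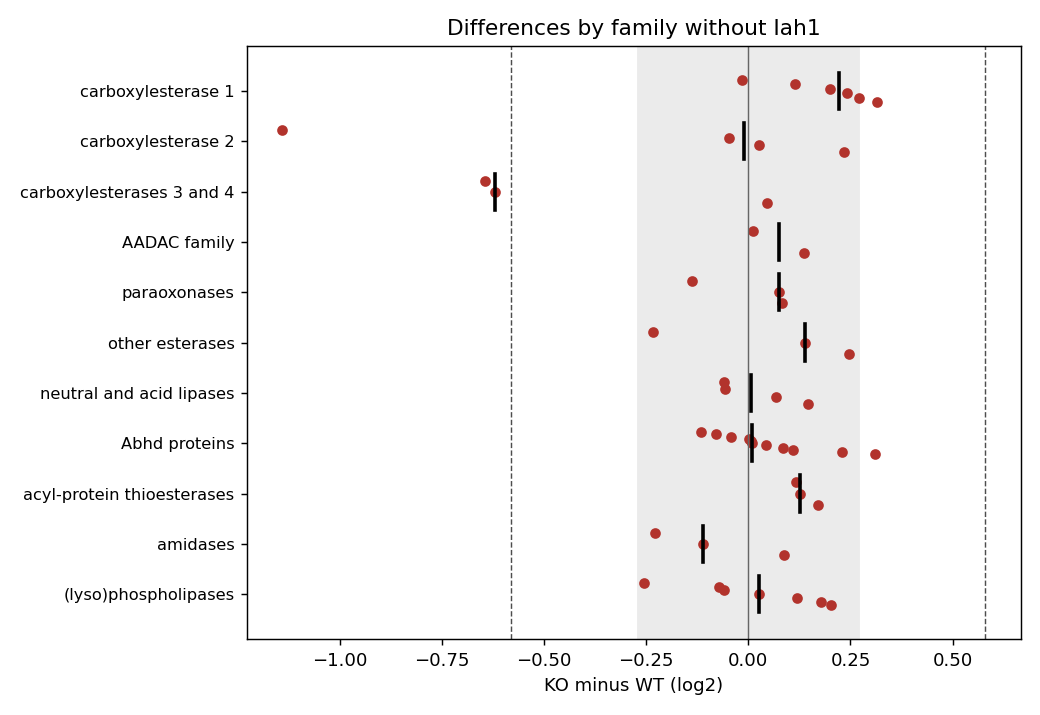
Difference KO minus WT (log2, horizontal axis) of each compared member by family, Iah1 left out; points are genes, black bars are family medians, grey shading is the probe set SD of 0.27 on either side of 0, and dashed lines mark 1.5-fold. Outside the dashed lines are Ces2b, Ces3b and Ces4a, and nearly all other points lie inside the shading.

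**Figure D5:**
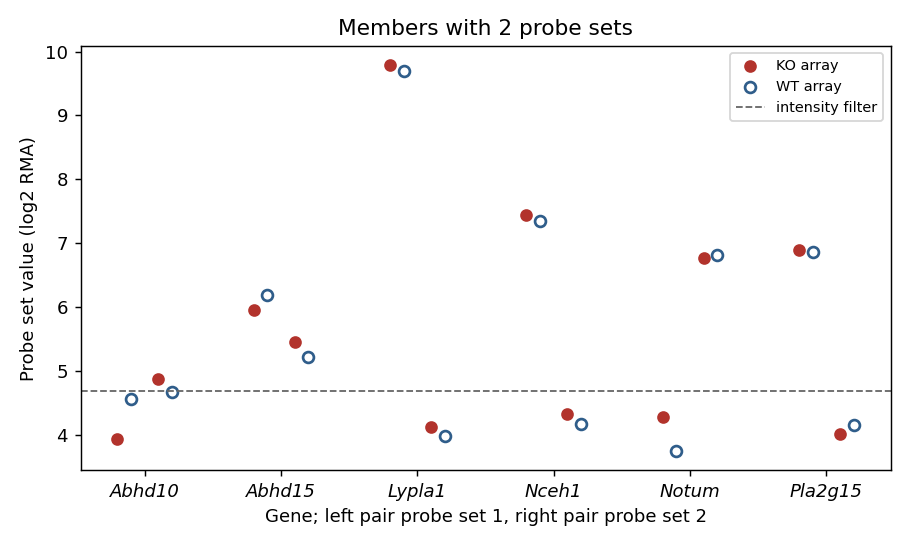
Values (log2 RMA, vertical axis) of both probe sets of the 6 members that have 2, filled for KO and open for WT; the dashed line is the filter at 4.68. In Abhd10, Abhd15, Notum and Pla2g15 the probe sets point in opposite directions, and in Notum the wide gap lies in the dimmer one.

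Related genes outside the list were set beside the members. In the list of other Abhd, Pnpla and alpha/beta hydrolases, 16 of 23 were compared, 5 above 0, with a median of -0.03, and Dagla, a diacylglycerol lipase that makes an endocannabinoid, was lower at 1.5-fold. Dagla was at 4.08 in KO and 5.08 in WT, at least 1.32-fold lower against the filter. Mest was next at -0.46. Of 14 compared phospholipases outside the members, 1 was lower at 1.5-fold and none was higher, with a median of -0.23. Pla2g7, the platelet-activating factor acetylhydrolase that macrophages secrete, was at 4.73 in KO and 5.35 in WT, and Pld1 differed by -0.49. Among carboxylesterases outside the members only Ces2d-ps and Ache (-0.46) of 9 were compared. The KO value of Ache, 4.58, was below the filter, so that it was at least 1.29-fold lower against the filter. Of other GDSL-type hydrolases, 3 of 6 were compared, led by Pced1b at 0.36 and Pced1a at -0.25, and the WT value of Pced1b was below the filter.

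Lipase cofactors and droplet proteins had a median of -0.02 over 9 genes, led by Plin4 at -0.28 and Fabp4 at -0.25. Transcription factors named for carboxylesterase and lipase genes had a median of 0.01 over 14 genes, 7 above 0 and 7 below. Srebf2, which drives sterol synthesis, was at 6.98 in KO and 6.54 in WT, or 0.44, and Gata6 was at -0.23.

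The arrays also differed in markers of other liver cells. Hepatocyte markers were level, with a median of -0.02 over 10 genes and Alb at 13.28 in KO and 13.30 in WT. All 12 Kupffer cell and macrophage markers lay below 0, 3 of them at 1.5-fold, with a median level of 7.16 in KO and 7.65 in WT. All 12 markers of sinusoidal endothelium did too, 5 at 1.5-fold, with a median level of 7.36 in KO and 7.89 in WT. Of 10 stellate cell markers, 6 lay below 0, and the 1 that reached 1.5-fold was higher, Des at 4.68 in KO and 3.75 in WT, the WT value below the filter. Of 8 pancreas acinar markers 2 were compared, Ctrb1 at 5.38 in KO and 4.69 in WT, higher at 1.5-fold, and Cela1 at 4.95 in KO and 5.12 in WT. Of 6 cholangiocyte markers Sox9 was compared, at -0.17. None of 8 lymphocyte markers reached the filter. Of the 8 adipocyte markers, Fabp4 and Cidea were compared, and the defining Adipoq was at 3.73 in KO and 3.67 in WT, below the filter. The part of these cells in the differences of the members and related genes, above or below 0, was not tested. In bulk liver, fewer cells of a type and less RNA per cell cannot be told apart.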

How the data were processed

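Per the submitters' processing notes, RMA in Affymetrix Expression Console 1.3.0 made the deposited log2 values, 1 per probe set and array, from biotin-labelled product of 100 ng of liver RNA. RMA subtracts background, gives the arrays equal distributions and summarises probes, so it compresses differences of dim genes and removes a general shift. A genome build was not given in the sources used here. The medians of all 41345 probe sets were 4.10 in KO and 4.08 in WT.

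Probe sets with 1 symbol in the platform annotation (23521) were averaged per gene, and 1814 that name several genes and 16010 that name none were left out. All 51 measured members matched RefSeq by gene identifier with the same symbol. Python 3.11.15, pandas 2.3.3 and statsmodels 0.14.6 were used, with no test, since each genotype has 1 array. Counting was tested on simulated data with less spread than these arrays show, so the rate of false calls was not tested. Every measured member could be named, and from each related list the 2 with the largest absolute difference. Members, families and lists were chosen with earlier results of these data known. The number of arrays limits the precision. Alternatives were a smaller and a larger (2-fold) threshold, other or no filters, subtraction of the median difference, a loess fit (span 0.4), quantile normalization again, the brightest probe set, and probe sets with several genes.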

Additional observations from a re-analysis of the deposited data

How the results depend on the processing

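No paired analysis was possible because each genotype has 1 array. The count of 0 members higher at 1.5-fold was the same in every alternative run. The share of all genes counted as higher ran from 0.135% at 2-fold to 6.62% at the smaller threshold. The count of 4 lower was 2 at the 2-fold threshold (Iah1 and Ces2b), against 0.307% of all genes. It was also 2 (Iah1 and Ces3b) with the filter at the 75th percentile, where fewer genes are compared and 1.10% of all genes were lower. The same 2 were left with the filter on the mean of the 2 arrays (2.06% of all genes). They were also left with the lower array set to the filter, where dim values carry no difference (1.63% of all genes). That last alternative was chosen after seeing the data. The count was 3 with the brightest probe set, against 2.46% of all genes. The median difference of the members stayed between 0.04 and 0.07. Iah1 and Ces3b were lower by 1.5-fold or more under every filter, scaling and probe set rule, with Ces3b between -0.64 and -0.62. Ces3b has 1 probe set and passed every filter, so only the scalings could change its value. The median of carboxylesterases 3 and 4 came to -0.30 without Ces4a. Dim members have the least certain values.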
